A study of Mus musculus with 20 samples.

Results

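The insulin-like growth factor (IGF) genes followed here were the ligand genes Igf1 and Igf2, the imprinted RNA H19, the receptor gene Igf2r and the binding protein genes Igfbp2 to Igfbp7. They were chosen by gene symbol, and all 10 were found among the 25869 genes of the expression table. RNA-seq was performed on 20 mouse libraries, of which 10 came from mouse embryonic fibroblasts (MEFs). The MEFs were 2 WT libraries, 2 dCas9a-SAM libraries without an sgRNA, 2 with a non-targeting guide (sgNT) and 4 with an sgRNA for the Bcl-2 promoter (sgBcl-2). They came from E14 embryos of C57BL/6 mice. Every MEF library other than WT carried the dCas9a-SAM cassette, so the sgNT and no sgRNA controls carried it too. The study describes such MEFs as heterozygous (KI/+). The cassette is a dead Cas9 with transcriptional activators, driven by the CAG promoter from the Rosa26 locus. The labels of the no sgRNA, sgNT and sgBcl-2 MEFs carry the line numbers 1 and 2, with 2 sgBcl-2 libraries for each number, and it is not clear from the labels whether these carry the same sgRNA. The B cell tumours were 6 lymphoma cell lines and 2 primary tumours of Eµ-Myc/dCas9a-SAM KI/+ genotype with sgBcl-2. Beside them were 2 preB-ALL libraries of the genotype BCR-ABL1 (p190T/+), labelled CreERLSLErg and RagCreErg. The lymphoma lines are called A to F here, and A to D were IgM positive while E and F were IgM negative. The lymphomas arose in C57BL/6-Ly5.1 recipients, irradiated and given transduced foetal liver cells of Eµ-Myc/dCas9a-SAM KI/+ genotype at an age of 6 weeks. Host cells can therefore be present in the primary tumours. The labels give no drug or other treatment of the cells.

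IGF-I and IGF-II are secreted growth factors that act through the type 1 IGF receptor, and IGF-II is the main IGF of the embryo. The Igf2r product, the cation-independent mannose 6-phosphate receptor, takes IGF-II up and carries it to lysosomes. The IGFBP proteins bind IGFs outside the cell and set how much ligand reaches the receptor, and IGFBP7 is a related protein with low affinity for IGFs. Igf2 is expressed from the paternal allele and H19 from the maternal allele of the same imprinted domain, while Igf2r is expressed from the maternal allele in most mouse tissues.

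In GRCm38.p6, H19 lay at chr7:142575530-142578146 and Igf2 at chr7:142650768-142666816, both on the minus strand with 72621 bases between them. An exon of H19 encodes the microRNA gene Mir675, and Mir483 lies in Igf2 outside its exons. Their mature sequences are shown because they are the parts of the locus with a defined target code, and capitals mark the seed, bases 2 to 8. RefSeq gave them in GRCm38.p6, at chr7:142577112-142577133 for the 5p arm of Mir675 and chr7:142577078-142577099 for its 3p arm. The 5p and 3p arms of Mir483 lay at chr7:142654968-142654989 and chr7:142654932-142654952, all on the minus strand.
mmu-miR-675-5p: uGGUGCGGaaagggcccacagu
mmu-miR-675-3p: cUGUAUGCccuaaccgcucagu
mmu-miR-483-5p: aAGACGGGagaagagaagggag
mmu-miR-483-3p: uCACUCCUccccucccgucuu
The 4 seeds were all different. Poly(A) RNA libraries do not measure mature microRNAs, so no level of either microRNA is given.

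Igfbp2, at chr1:72824480-72852474 on the plus strand, and Igfbp5, at chr1:72858065-72874865 on the minus strand, were neighbours separated by 5590 bases. Igfbp3 lay at chr11:7206086-7215498, Igfbp4 at chr11:99040005-99052655, Igfbp6 at chr15:102144186-102149512 and Igfbp7 at chr5:77349240-77408045. Igf1 lay at chr10:87858265-87937047 and Igf2r at chr17:12682406-12769706. RefSeq promoter windows of 300 bases were available for 9 of the 10 genes. The windows of 4 binding protein genes are shown because these had the largest fold changes of their kind between sgNT and no sgRNA MEFs, a choice made after the values were seen, and for Igfbp2 the first of its windows is given. Capitals mark TATAAA or GGGCGG on either strand. The windows were chr1:72824230-72824529 (plus), chr1:72874816-72875115 (minus), chr11:7213874-7214173 (minus) and chr15:102143936-102144235 (plus), in the order printed.
Igfbp2: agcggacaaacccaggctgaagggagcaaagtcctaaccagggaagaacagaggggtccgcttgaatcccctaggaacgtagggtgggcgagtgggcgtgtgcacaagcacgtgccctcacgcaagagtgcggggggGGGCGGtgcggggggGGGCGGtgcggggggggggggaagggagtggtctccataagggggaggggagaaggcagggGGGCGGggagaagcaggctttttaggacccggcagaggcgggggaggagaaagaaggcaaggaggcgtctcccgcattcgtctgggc
Igfbp5: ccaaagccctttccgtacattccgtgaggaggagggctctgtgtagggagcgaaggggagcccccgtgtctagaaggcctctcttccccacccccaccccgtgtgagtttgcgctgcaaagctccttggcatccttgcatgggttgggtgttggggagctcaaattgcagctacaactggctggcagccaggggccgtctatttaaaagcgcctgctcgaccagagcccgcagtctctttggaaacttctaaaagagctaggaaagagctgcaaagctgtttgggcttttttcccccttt
Igfbp3: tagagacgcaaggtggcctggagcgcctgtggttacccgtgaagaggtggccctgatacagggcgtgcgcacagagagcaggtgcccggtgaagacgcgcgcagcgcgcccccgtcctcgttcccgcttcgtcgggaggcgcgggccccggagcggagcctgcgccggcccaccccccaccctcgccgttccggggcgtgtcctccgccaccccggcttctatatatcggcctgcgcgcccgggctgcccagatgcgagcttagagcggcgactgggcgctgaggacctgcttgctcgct
Igfbp6: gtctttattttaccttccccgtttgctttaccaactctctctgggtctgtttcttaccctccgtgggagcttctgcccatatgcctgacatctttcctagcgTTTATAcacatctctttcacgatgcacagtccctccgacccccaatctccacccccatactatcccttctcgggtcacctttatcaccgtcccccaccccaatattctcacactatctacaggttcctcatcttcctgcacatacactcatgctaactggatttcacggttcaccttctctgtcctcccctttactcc
Igfbp2 held 3 matches to GGGCGG and Igfbp6 held 1 match to TATAAA, while the windows of Igfbp3 and Igfbp5 held neither. Of all 32851 promoter windows, 13.6% held TATAAA and 35.7% held GGGCGG. A match describes letters in the window and was not tested as a binding site.

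Depth was between 12474885 and 26678417 reads per library, the preB-ALL libraries being the shallowest. Bcl2, the gene the guide was made for, was at 46.8 to 71.8 CPM in sgBcl-2 MEFs and at 13.4 to 13.7 CPM in sgNT MEFs. WT library 2 stood apart from the other MEFs. Its median correlation with them over genes was 0.861, its summed level of 12 fibroblast markers was 2833 CPM against 9812 to 17450 CPM in the other 9 MEF libraries, and its summed level of 12 macrophage markers was 244.4 CPM against 10.8 to 20.6 CPM. Its sums of skeletal muscle markers (303.3 against 47.9 to 144.2 CPM), endothelial markers (59.1 against 7.59 to 21.7 CPM) and epithelial and mesothelial markers (285.1 against 48.0 to 251.8 CPM) were also the highest of the MEFs, and their part in its levels was not tested. The comparisons with WT, the order of levels and the genes most like Igf2 and H19 are therefore also given without it or without both WT libraries. No pair of libraries of a group was alike within sampling noise. The study describes the WT and sgNT MEFs as independent lines and names the lymphoma lines by the mouse they came from. The 2 primary tumours carry different mouse numbers, and the 2 preB-ALL libraries carry different labels. Nothing used here calls the no sgRNA or sgBcl-2 MEF libraries independent, and the spread behind their p-values may be technical.

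**Figure D1:**
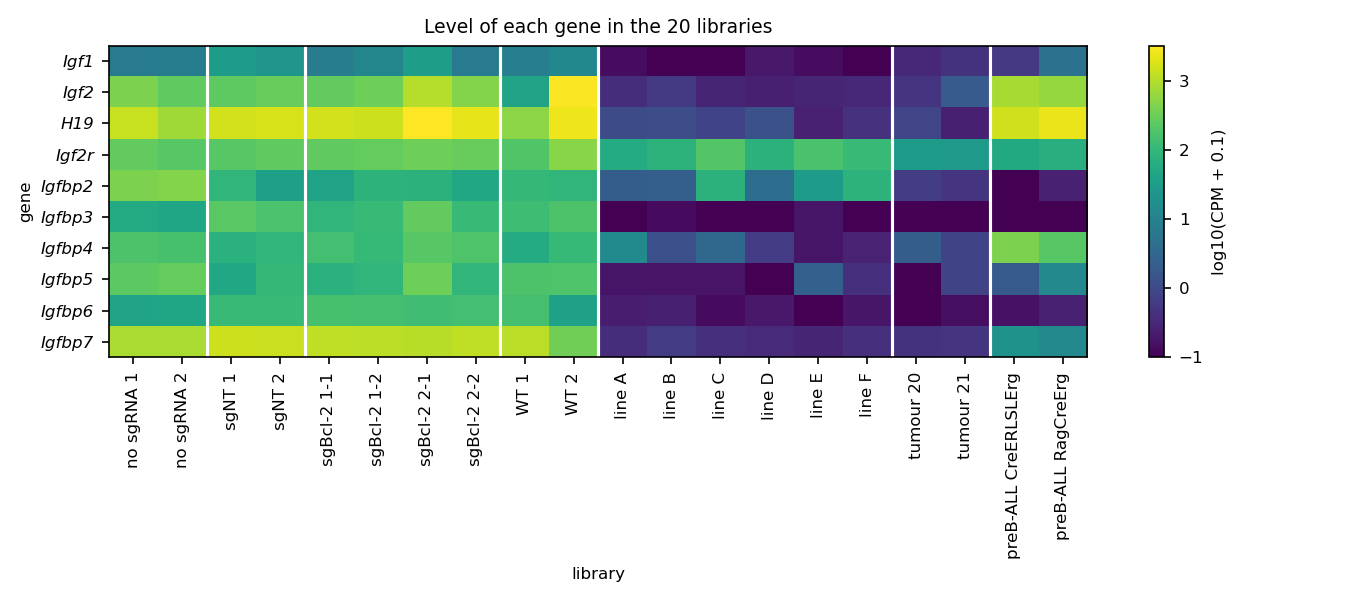
Levels of the 10 genes in the 20 libraries, coloured by log10(CPM + 0.1), with genes in rows and libraries in columns. The MEF libraries hold reads of every gene, whereas Igfbp3 has 3 reads in all over the 6 lymphoma lines and none in the primary tumours or preB-ALL.

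Compared per kilobase of exon, Igfbp7 was the highest of the 10 genes over the 10 MEF libraries, with a mean level of 877 ± 264 CPM per kb (SD, n = 10). H19 followed at 686 ± 322 CPM per kb, and these neighbours in the order did not differ beyond their spread. Igf2 came next at 110.0 ± 151 CPM per kb, then Igfbp6 at 97.2 ± 43.5, Igfbp2 at 78.8 ± 85.8 and Igfbp3 at 44.1 ± 22.9 CPM per kb, each within the spread of the next. Igf2r at 30.3 ± 9.79, Igfbp4 at 29.8 ± 11.5 and Igfbp5 at 26.9 ± 15.7 CPM per kb were likewise not separated, and Igf1 was the lowest at 1.48 ± 0.989 CPM per kb. Without WT library 2 the mean of Igf2 was 64.4 ± 47.0 CPM per kb (SD, n = 9), below Igfbp6 at 104.2 ± 39.7 and Igfbp2 at 81.9 ± 90.4 CPM per kb, and Igfbp4 and Igf2r changed places. This alternative was added after the data were seen. The order pools the groups and did not hold within each. Without an sgRNA, Igfbp2 was at 222.3 to 255.8 CPM per kb and Igfbp6 at 38.87 to 40.69. With sgBcl-2, Igfbp2 was at 21.54 to 44.44 CPM per kb and Igfbp6 at 120.7 to 143.6.

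The highest level of Igf2 over the 10 MEF libraries was 69.8 times the lowest, the widest ratio of the 10 genes. This rested on the WT libraries, since the ratio was 23.7 without WT library 2 and 4.05 without both, when it was below those of Igfbp2 (13.3), Igfbp5 (6.38), Igfbp3 (6.02), Igf1 (4.79) and H19 (4.38). These ratios without WT were added after the data were seen. Its level was 411.8 and 254.6 CPM in the 2 libraries without an sgRNA, 249.9 and 292.0 CPM with sgNT, and 263.3, 323.9, 1012 and 463.8 CPM with sgBcl-2. The WT libraries held both extremes, at 42.75 CPM in library 1 and 2983 CPM in library 2. H19, the other gene of the imprinted domain, was at 1361 and 736.4 CPM without an sgRNA, at 1572 and 1753 CPM with sgNT, and at 1582, 1445, 3222 and 2182 CPM with sgBcl-2. WT library 1 was again the lowest, at 534.2 CPM, and WT library 2 held 2480 CPM. The ratio of Igf2 to H19 levels per kb was 0.0344 in WT library 1 and 0.517 in WT library 2, on either side of the range of 0.0683 to 0.149 in the other 8 libraries.

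**Figure D2:**
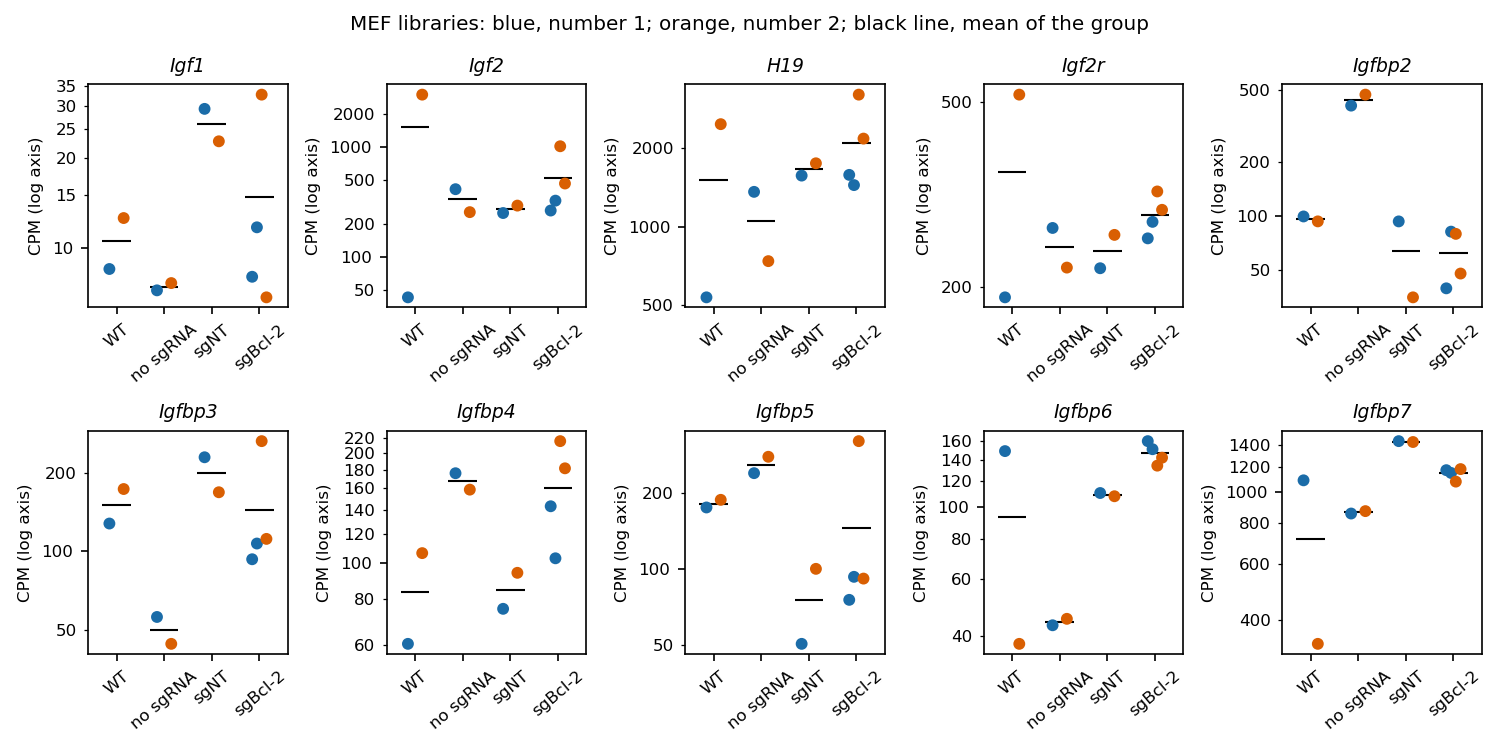
Level of each gene in CPM (log axes) in the 10 MEF libraries by group, with points for single libraries coloured by their number and a black line for the group mean. The WT points of Igf2 lie at 42.75 and 2983 CPM, outside the 8 other libraries, while Igfbp2 is highest in the 2 libraries without an sgRNA.

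Over the 10 MEF libraries, the genes whose log2(CPM + 0.1) was most like that of Igf2 were Gpc3 (Pearson r = 0.982), Rai1 (0.963), Hs6st1 (0.954), Nrp2 (0.954) and Hhip (0.952), of 13391 genes ranked. Gpc3 encodes a cell surface proteoglycan of the embryo. Without the WT libraries, Gpc3 was at rank 6 (r = 0.899), Hs6st1 at rank 33, Rai1 at rank 78, Hhip at rank 274 and Nrp2 at rank 397. H19 was most like Fmnl2 (0.969), Adam17 (0.965), Ror2 (0.949), Fndc3a (0.946) and Zfp607b (0.942), of the same number of genes. Without the WT libraries, Fmnl2 was at rank 2 (r = 0.975), Adam17 at rank 7, Fndc3a at rank 17, Zfp607b at rank 40 and Ror2 at rank 64. Igf2 and H19 correlated at 0.825 over the 10 libraries and at 0.758 over the 8 without WT. These correlations are descriptions over libraries that share line numbers, and no p is given.

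The comparison of sgNT with no sgRNA MEFs asks what differs between dCas9a-SAM MEFs with and without a non-targeting guide. In the study, MEFs received sgNT by infection, and none is described for MEFs without a guide. The guide, infection and any selection or passage cannot be told apart here. The binding protein genes moved in both directions. Igfbp3, Igfbp6 and Igfbp7 rose, Igfbp2, Igfbp4 and Igfbp5 fell, and the ligand gene Igf1 rose. These were 7 of the 10 genes at an adjusted p under 0.05 (limma), 4 higher and 3 lower, where 41.1% of all 14655 genes tested were called, 20.3% higher and 20.9% lower. The median fold change of the 10 genes was 0.34 on the log2 scale against 0.0050 for all genes tested.

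Igfbp2 was at 410.6 and 472.4 CPM without an sgRNA and at 93.55 and 35.46 CPM with sgNT. The groups did not overlap, as was the case for 8 of the 10 genes and for 73.0% of all genes tested, and the mean was 6.84 times higher without an sgRNA (log2 fold change -2.95 ± 0.35 SE, adjusted p = 0.00057). The log2 fold change was -3.61 without sgNT library 1 and -2.28 without sgNT library 2, and Igfbp2 was called in both. Igfbp5, its neighbour on chromosome 1, was at 240.3 and 279.1 CPM without an sgRNA and at 50.48 and 100.2 CPM with sgNT (log2 fold change -1.88 ± 0.28, adjusted p = 0.0016). Both genes were thus lower in both sgNT libraries than in either library without an sgRNA. Igfbp4, whose product inhibits IGF action until it is cleaved by the protease PAPP-A, was at 175.9 and 158.7 CPM against 75.18 and 94.22 CPM with sgNT (a 1.98-fold lower mean, adjusted p = 0.00061).

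Igfbp3, which encodes the main IGF carrier of serum, was at 55.98 and 44.12 CPM without an sgRNA and at 230.4 and 169.0 CPM with sgNT. This was a 3.99-fold higher mean (log2 fold change 1.97 ± 0.14, adjusted p = 7.1e-05). Igfbp6, whose product prefers IGF-II, was at 43.22 and 45.24 CPM against 110.5 and 108.0 CPM with sgNT, and the libraries of each group lay close together (log2 fold change 1.29 ± 0.07, adjusted p = 1.8e-05). Igfbp7 was at 858.0 and 872.9 CPM against 1440 and 1431 CPM (log2 fold change 0.71 ± 0.09, adjusted p = 0.00069). Igf1 was at 7.196 and 7.612 CPM against 29.24 and 22.76 CPM with sgNT, a 3.51-fold higher mean (log2 fold change 1.77 ± 0.13, adjusted p = 7.4e-05).

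H19 lay above the no sgRNA libraries in both sgNT libraries but did not pass the threshold (log2 fold change 0.71 ± 0.25, adjusted p = 0.051). It was called higher with limma-voom (adjusted p = 0.047), without a scaling factor (0.034), with the line number as a block (0.027) and without no sgRNA library 1 (log2 fold change 1.16, adjusted p = 0.0012), but not without no sgRNA library 2 (0.27, adjusted p = 0.28) or with DESeq2 (0.27). Igf2 and Igf2r overlapped between the groups, and Igf2 was not called (log2 fold change -0.28, adjusted p = 0.30). Igf2 was called lower without no sgRNA library 2 (-0.62, adjusted p = 0.0060) and turned to 0.07 without no sgRNA library 1 (adjusted p = 0.72). Igf2r was at 268.1 and 220.5 CPM without an sgRNA and at 219.8 and 259.1 CPM with sgNT. With the spread shared over all 10 MEF libraries, WT included, 2 of the 7 calls remained, those of Igfbp2 and Igfbp3, and 901 genes were called in all.

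**Figure D3:**
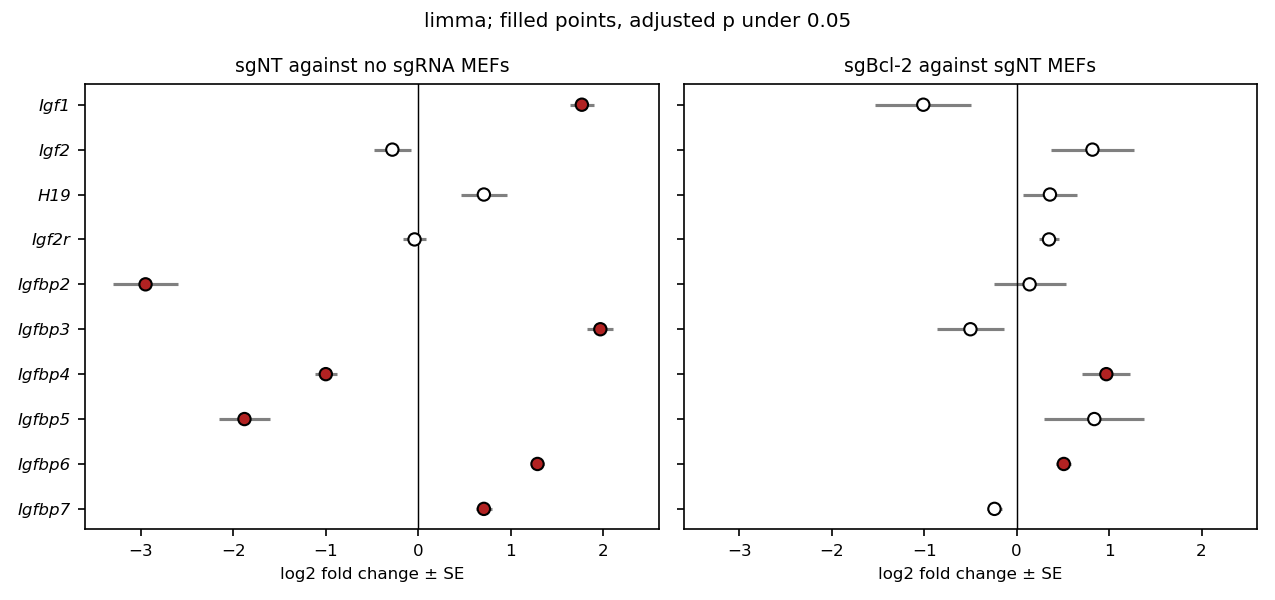
Log2 fold change of each gene (horizontal axis, bars are SE) in 2 MEF comparisons, with filled points for an adjusted p under 0.05. For sgNT against no sgRNA, Igfbp2 lies at -2.95 and Igfbp3 at 1.97, and the sgBcl-2 against sgNT values of Igfbp6 and Igfbp4 lie at 0.51 and 0.97.

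Other genes moved with this comparison. Of the IGF signalling and IGFBP turnover genes, 7 rose and 8 fell of 27 tested, with Adam12, a protease that cleaves IGFBPs, at a log2 fold change of -1.15, Foxo1, a transcription factor restrained by insulin and IGF signalling, at -1.15, and Pappa2, a protease of Igfbp5 protein, at 2.78. Of the imprinted gene network, 10 rose and 5 fell of 27 tested, with Dlk1 at 1.91, Plagl1 at -1.08 and Gatm at -1.87. Of the neighbours of Igf2 and H19 on chromosome 7, 2 rose and 4 fell of 10 tested, and Syt8 had a log2 fold change of -3.46. The list medians were 0.060, 0.29 and -0.28. In the same order, 55.6%, 55.6% and 60.0% of the genes tested were called in either direction. Of all genes tested, 41.1% were called, 20.3% higher and 20.9% lower.

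Marker levels differed between the same libraries, where 20.3% of all genes tested were called higher and 20.9% lower. Of 12 fibroblast markers, 10 were higher with sgNT, and their sum was 14050 to 14560 CPM against 9812 to 11470 CPM without an sgRNA, with no marker at 0 in either group. Of 8 epithelial and mesothelial markers, 6 were tested and 5 were lower, with a sum of 55.2 to 68.9 CPM against 200.1 to 251.8 CPM, and Epcam at 0 with sgNT. All 10 proliferation genes were lower with sgNT, with a sum of 419.3 to 424.9 CPM against 791.2 to 803.2 CPM. Of 10 skeletal muscle markers, 7 were tested and 4 were lower, with a sum of 49.5 to 51.1 CPM against 113.2 to 144.2 CPM. Of 5 macrophage markers tested, 3 were higher, with a sum of 18.0 to 20.6 CPM against 10.79 to 12.02 CPM, and Vsig4 was at 0 in both groups. Of 6 endothelial markers tested, 2 were higher and 3 lower, with a sum of 16.1 to 19.3 CPM against 18.8 to 21.7 CPM, and Cldn5 was at 0 in both groups. Of 8 smooth muscle markers, 2 were higher and 2 lower, with a sum of 4593 to 5572 CPM against 5825 to 7119 CPM. The part of these differences in the result was not tested, and in bulk libraries fewer cells of a type and less RNA per cell cannot be told apart.

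The comparison of sgBcl-2 with sgNT MEFs asks what the targeting guide changes beyond a guide without a target. Igfbp6 and Igfbp4 rose, and none of the 10 was called lower. Other settings called Igfbp7 lower (DESeq2 or no scaling factor), or Igf1 and Igfbp3 (without sgBcl-2 library 2-1). These were 2 of 10, where 10.8% of 14676 genes tested were called and 6.61% were called higher. Igfbp6 was at 159.7, 150.8, 134.2 and 142.0 CPM with sgBcl-2, above both sgNT libraries at 110.5 and 108.0 CPM (1.34-fold, log2 fold change 0.51 ± 0.08, adjusted p = 0.0081). Igfbp4 was at 143.0, 103.2, 215.1 and 181.4 CPM with sgBcl-2 against 75.18 and 94.22 CPM (1.90-fold, log2 fold change 0.97 ± 0.26, adjusted p = 0.048). The groups of both genes did not overlap, as for 3 of the 10 genes and 44.0% of all genes tested, and without either sgNT library none of the 10 genes was called. Igfbp4 also missed the threshold in 3 of 4 fits that left out an sgBcl-2 library (adjusted p 0.066 to 0.078). It missed it too without a low-count filter and with limma-voom (0.055 and 0.051). With the spread shared over all 10 MEF libraries, WT included, 0 of the 10 genes were called, and 64 genes were called in all.

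Igf2r, at 254.7, 276.3, 321.0 and 293.2 CPM with sgBcl-2, overlapped with sgNT and did not pass (log2 fold change 0.35 ± 0.11, adjusted p = 0.079), and it passed with the MEF line number as a block (adjusted p = 0.011). With the 2 sgBcl-2 libraries of a line number summed and the same block, 5 genes rose, where 17.6% of all genes were called. They were Igfbp6 (adjusted p = 0.0026), Igfbp4 (0.00050), Igfbp5 (0.00034), Igf2r (0.0087) and Igf2 (0.024). Igfbp7 was at 1170, 1147, 1078 and 1179 CPM, below both sgNT libraries (log2 fold change -0.24 ± 0.08, adjusted p = 0.10). Without a scaling factor the calls among the 10 were Igfbp6 higher and Igfbp7 lower, and over all genes 710 were higher and 1137 lower in place of 970 and 622. Library 2-1 held the highest level of 7 of the 10 genes among the 4 sgBcl-2 libraries, with Igf2r and Igfbp4 as given above, Igf1 at 32.64 CPM, Igf2 at 1012 CPM, H19 at 3222 CPM, Igfbp3 at 265.8 CPM and Igfbp5 at 322.0 CPM. The other 3 libraries held 6.817 to 11.71 CPM of Igf1, 93.35 to 111.8 CPM of Igfbp3 and 75.47 to 93.15 CPM of Igfbp5. Without this library, Igf1 (log2 fold change -1.48, adjusted p = 0.012) and Igfbp3 (-0.83, adjusted p = 0.015) were called lower beside Igfbp6.

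Igfbp2 stayed low, at 39.79, 82.08, 79.78 and 48.06 CPM with sgBcl-2, overlapping with sgNT and below both libraries without an sgRNA. A difference of the sgBcl-2 effect between the 2 line numbers was called for 0 of 14676 genes by limma (0%), with 519 at an unadjusted p under 0.05, and for 0 by edgeR with 505 under 0.05. With 1 sgNT library for each number, this does not show that the effects were alike. Of the IGF signalling and turnover genes, 6 rose and 3 fell of 27, with Pappa at a log2 fold change of -0.90, Igf2bp2, which encodes an RNA-binding protein of Igf2 mRNA, at 0.71, and Tgfbr3 at 1.28. Of the neighbours of Igf2 and H19, 4 of 9 rose, with Ascl2 at 2.40. Of the imprinted gene network, 2 of 27 fell, Zdbf2 at -0.90 and Peg10 at -0.71, a share near the 4.24% of all genes that fell. Of the fibroblast markers, 3 of 12 rose, with a sum of 13350 to 17450 CPM against 14050 to 14560 CPM with sgNT and no marker at 0. Of the epithelial and mesothelial markers, 2 of 6 tested rose, Msln at 2.75 and Krt8 at 1.95, with a sum of 87.4 to 148.2 CPM against 55.2 to 68.9 CPM and Epcam at 0 with sgNT. Of the smooth muscle markers, 2 of 8 fell, Cnn1 at -0.67 and Lmod1 at -0.55, with a sum of 3118 to 4194 CPM against 4593 to 5572 CPM and no marker at 0. Of the macrophage and endothelial markers, 1 of 5 and 1 of 4 tested fell. These list and marker counts stand beside 6.61% of all genes called higher and 4.24% called lower. The part of these markers in the levels of Igfbp4 and Igfbp6 was not tested.

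Comparison with WT MEFs sets the cassette, alone or with sgNT, beside WT. The WT MEFs came from other embryos, and the sgNT MEFs were also infected. These differences cannot be told apart from the cassette. None of the 10 genes was called in either comparison with limma. For sgNT against WT, 0 of 14560 genes were called (0%), with 589 at an unadjusted p under 0.05, 0 called by edgeR and 88 by DESeq2. For no sgRNA against WT, 0 of 14546 genes were called (0%), with 1081 at an unadjusted p under 0.05, 0 called by edgeR and 188 by DESeq2. The WT libraries differed from each other by more than 2-fold for 5 of the 10 genes, Igf2, H19, Igf2r, Igfbp6 and Igfbp7. Igfbp6 was at 148.8 and 37.88 CPM, Igfbp7 at 1088 and 337.8 CPM, and Igf2r at 190.4 and 517.5 CPM, in library 1 and library 2. The other 5 genes differed by 1.07-fold to 1.77-fold, with Igfbp2 at 99.66 and 93.58 CPM, Igfbp3 at 128.1 and 173.9 CPM and Igfbp5 at 175.6 and 188.3 CPM.

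Igfbp2 was higher in both libraries without an sgRNA than in both WT libraries, and groups did not overlap for 5 of the 10 genes and 41.0% of all genes (log2 fold change 2.23, adjusted p between 0.61 and 0.66 for this and the next 3 genes). Igfbp3 had a log2 fold change of -1.55, Igfbp4 1.10 and Igfbp5 0.55. DESeq2 called Igfbp2 (adjusted p = 1.1e-07) and Igfbp3 (0.0026), and the fit on all 10 MEF libraries called Igfbp2 (0.035). For sgNT against WT, groups did not overlap for 4 of the 10 genes and 37.9% of all genes. The log2 fold changes of these 4 were 1.32 for Igf1, 1.25 for Igfbp7, -0.73 for Igfbp2 and -1.34 for Igfbp5. Each had an adjusted p of 0.8 with limma. Without WT library 2, 7 of the 10 genes were called between no sgRNA and WT, where 31.8% of all genes were called, and without WT library 1, 9 were called, where 55.1% were. For sgNT these were 6 genes beside 11.2% and 5 genes beside 53.4%. Igf2 turned from lower to higher without WT library 2, with a log2 fold change of 2.86 for no sgRNA and 2.59 for sgNT. A lone WT library is then assumed to vary like the other group.

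The binding protein genes differed in their shares as well as their levels. Igfbp7 held 58.8% to 85.0% of the summed level per kb of the 6 binding protein genes in each of the 10 MEF libraries. Igfbp2 held 20.8% and 22.9% without an sgRNA, 10.7% in WT library 2 and 1.38% to 4.61% in the other 7 MEF libraries. In the lymphoma lines the sum was 2.03 to 44.2 CPM per kb, against 475 to 1440 CPM per kb in MEFs, and Igfbp2 was the leading gene in lines B to F, with 57.9% to 99.1%. Igfbp4 led in line A (68.5%) and in preB-ALL (84.1% and 78.8%). These shares describe RNA and carry no test.

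**Figure D4:**
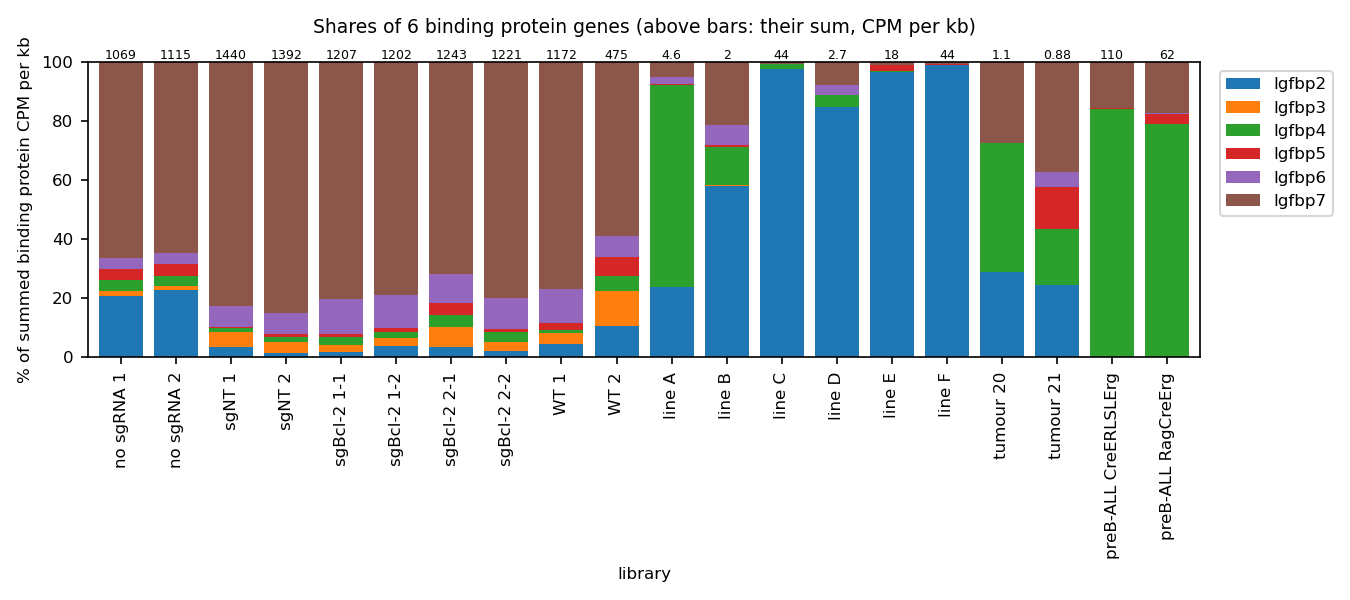
Share of each of the 6 binding protein genes in their summed CPM per kb (vertical axis, percent) in the 20 libraries, with the sum in CPM per kb above each bar. Igfbp7 takes the largest share in all 10 MEF libraries, Igfbp2 in lymphoma lines B to F and Igfbp4 in both preB-ALL libraries.

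Against the lymphoma lines, which also carried an sgRNA for Bcl-2, sgBcl-2 MEFs held more of 9 of the 10 genes, where 81.3% of 14620 genes were called and 45.0% were called higher. Tissue, culture medium and transformation differ together here and cannot be told apart. The summed fibroblast markers were 2.07 to 6.97 CPM in the lymphoma lines. Igf2 was at 0.149 to 0.487 CPM in the lines, and its pooled level in sgBcl-2 MEFs was 2000-fold higher. H19 was at 0.156 to 1.195 CPM in the lines and 2880-fold higher in the MEFs. Igfbp7 was at 0.195 to 0.525 CPM and 3640-fold higher. Igfbp2 was the exception, with 2.028, 2.174, 78.54, 4.183, 31.29 and 80.87 CPM in lines A to F, a range that overlapped with that of the sgBcl-2 MEFs (log2 fold change 2.41, adjusted p = 0.078). This depended on the fit, since Igfbp2 was called higher in MEFs with limma-voom (adjusted p = 0.036), without line C (0.032) and without line F (0.032), and was at 0.35 with edgeR and 0.20 with DESeq2. DESeq2 gave no p for Igfbp5. Igf2r was detected in every line, at 60.34 to 201.6 CPM. Igf1r, which encodes the signalling receptor, was at 8.394, 12.63, 85.14, 60.95, 0.2344 and 45.61 CPM in lines A to F and at 183.0 to 246.1 CPM in the MEFs.

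Lymphoma lines and preB-ALL, both B cell tumours, differed in this family. The preB-ALL libraries used another medium and RNA kit, and their column names carry a lane label that no other library has. Tumour type, preparation and sequencing therefore cannot be told apart. Of 8 genes tested, 6 were lower and 1 was higher in the lymphoma lines, where 43.4% of 13961 genes were called, 20.9% higher and 22.5% lower. Without a scaling factor these counts over all genes were 1691 higher and 4400 lower, in place of 2914 and 3145. H19 was at 1521 and 2409 CPM in the CreERLSLErg and RagCreErg libraries (log2 fold change -11.02, adjusted p = 5.4e-06). Igf2 was at 842.1 and 631.2 CPM (log2 fold change -10.74, adjusted p = 1e-06). These levels of both genes lay within the range of the MEF libraries.

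The preB-ALL libraries held 409.5 and 216.7 CPM of Igfbp4, whereas the lymphoma lines held 0.078 to 13.95 CPM (log2 fold change -7.76, adjusted p = 0.0042). Igfbp7 was at 20.84 and 12.99 CPM (log2 fold change -5.04, adjusted p = 3.1e-05), Igf1 at 0.468 and 4.81 CPM (-3.47, adjusted p = 0.0045) and Igfbp5 at 1.804 and 13.23 CPM (-3.82, adjusted p = 0.036). Single libraries set the size of some of these log2 fold changes. Igf1 had 7 reads in CreERLSLErg, 60 in RagCreErg and 4 over all 6 lines, and its log2 fold change was -4.96 without CreERLSLErg, while without RagCreErg it did not pass the low-count filter and was not tested. Igfbp4 was at -8.51 without line A, and Igfbp5 was at -5.19 without CreERLSLErg, -4.47 without line E and -2.49 without RagCreErg. Igf2r was at 53.84 and 66.61 CPM in preB-ALL, and its groups overlapped (log2 fold change 1.19, adjusted p = 0.065), but it was called higher in the lines without line A (1.35, adjusted p = 0.034). Igfbp2 went the other way, with 0 and 2 reads in preB-ALL against 4941 reads in the lymphoma lines, at least 308-fold higher over the pooled lines against a floor of 3 reads over the group (adjusted p = 0.013). Lines C, E and F carried this, at no less than 719, 286 and 740 times the floor, whereas lines A, B and D were at no less than 18.5, 19.9 and 38.3 times. Igfbp3 had no read in preB-ALL, and Igfbp6 was at 0.067 and 0.160 CPM. Igfbp2 was not called with a pseudocount of 1, with limma-voom or without either preB-ALL library, and Igfbp5 was not called with edgeR (adjusted p = 0.10) or in 6 of the 8 fits that left out a library. DESeq2 gave no adjusted p for Igfbp4 and Igfbp5 and called Igf2r higher in the lines (0.027). Without the RagCreErg library, 4 of 7 genes tested were called, where 22.2% of all genes were.

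Fibroblast markers were present in preB-ALL. Their sum was 3176 CPM in CreERLSLErg and 1467 CPM in RagCreErg, with 12 and 11 of the 12 markers detected, and all 11 markers tested were lower in the lymphoma lines. Smooth muscle markers summed to 270.4 and 80.5 CPM in the same order against 3.32 to 6.30 CPM in the lines, with 5 of 6 tested lower in the lines and Myocd at 0 in preB-ALL. Skeletal muscle markers summed to 34.7 and 78.2 CPM against 6.14 to 9.90 CPM, with 5 of 7 tested lower, Myod1 at a log2 fold change of -5.83 and Myog at -5.52, and Myf5 at 0 in preB-ALL. The summed B cell markers were 4709 to 9104 CPM in preB-ALL and 1287 to 2650 CPM in the lymphoma lines. Per 1000 CPM of summed fibroblast markers, Igf2 was at 265 and 430 CPM in preB-ALL, against 17.8 to 58.0 CPM in the 8 MEF libraries other than WT, 3.81 CPM in WT library 1 and 1050 CPM in WT library 2. Igfbp4 was at 129 and 148 CPM on this scale against 5.35 to 37.6 CPM in all 10 MEF libraries. Igfbp7 was at 6.56 and 8.85 CPM against 61.8 to 119 CPM, and Igfbp3 at 0 against 4.50 to 61.4 CPM. Of 4 macrophage markers tested, 3 were lower in the lines, with sums of 10.9 and 19.9 CPM in preB-ALL against 2.31 to 6.15 CPM. Adgre1, C1qa, C1qb and Vsig4 were at 0 in preB-ALL. These marker counts stand beside 22.5% of all genes called lower in the lines. The part of the fibroblast, muscle and macrophage markers in the preB-ALL levels was not tested.

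**Figure D5:**
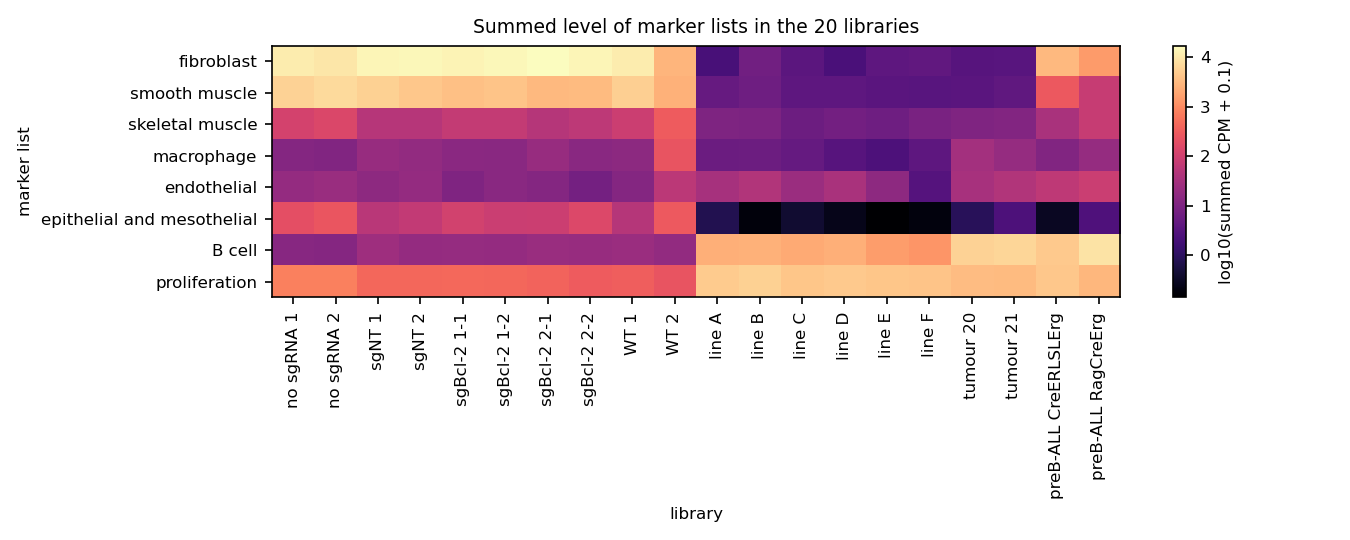
Summed level of 8 marker lists (rows) in the 20 libraries (columns), coloured by log10(summed CPM + 0.1). The fibroblast sum is 2833 CPM in WT library 2, 1467 to 3176 CPM in the preB-ALL columns and 2.07 to 6.97 CPM in the lymphoma lines.

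Of the IGF signalling and turnover genes, 1 was higher and 11 were lower in the lymphoma lines of 25 tested, with Igf2bp1 at a log2 fold change of -5.06, Grb14 at -4.54 and Pappa2 at -4.19. The list median was -1.30 against -0.069 for all genes. Of the imprinted gene network, 1 was higher and 4 were lower of 13 tested, with Slc38a4 at -6.82, Sgce at -5.28 and Peg10 at -3.65. The shares called in either direction were 48.0% and 38.5%, near the 43.4% of all genes in this comparison. By direction, the 11 lower and 1 higher of 25 IGF signalling and turnover genes stand beside 22.5% lower and 20.9% higher over all genes.

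The primary tumours are compared with the lymphoma lines to set tissue beside culture. Their labels carry the mouse numbers of lines A and B but conflict on which tumour is which, so they were not paired. The fit took all libraries as independent, although by these labels the tumours share mice with lines A and B. Igf2r was at 29.09 and 27.43 CPM in the tumours, below all 6 lines (log2 fold change -1.99 ± 0.45, adjusted p = 0.020). It was the 1 call among 6 genes tested, where 19.7% of 13106 genes were called and 10.2% were called lower. Without either tumour library (adjusted p = 0.12 and 0.13) or with the IgM-positive lines alone (0.065) it was not called. Igfbp2 was at 0.570 and 0.399 CPM in the tumours, also below every line (log2 fold change -4.53, adjusted p = 0.085). The groups did not overlap for 2 of the 6 genes and 36.4% of all genes tested. Igf2 was at 0.394 and 1.845 CPM (log2 fold change 1.47, adjusted p = 0.12). Without the tumour at 0.394 CPM it was called higher (2.47, adjusted p = 0.043), as the 1 call of that fit, and without the other tumour its log2 fold change was 0.47 (adjusted p = 0.64). DESeq2 called Igfbp2 lower (adjusted p = 5.1e-05). The summed macrophage markers were 20.3 to 29.1 CPM in the tumours and 2.31 to 6.15 CPM in the lines.

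Antisense and overlapping RNAs touch both imprinted genes. Igf2os overlaps Igf2 and was at 14.51 CPM in WT library 2 and at 0.2122 to 1.777 CPM in the other 9 MEF libraries. Airn overlaps Igf2r and was at 1.247 to 3.030 CPM in MEFs. The library kit does not mark strand, so reads of each gene and of its overlapping partner cannot be told apart.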

How the data were processed

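RNA was sequenced from 20 libraries made with the TruSeq RNA Library Prep Kit v2. The authors aligned reads to GRCm38 with Rsubread, counted them per gene by Entrez identifier and deposited CPM values. Low-count filtering, voom and limma were later steps of the authors and are not in these values. RefSeq symbols matched 25242 of 25869 identifiers. The 10 genes and all lists were chosen with earlier results of these data known. All 10 genes are named, with at most 3 genes of each other list, those with the smallest p, and the 5 genes most like Igf2 and H19.

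All CPM values gave whole reads within 0.01 read (100%), and these were used for filterByExpr and for edgeR and DESeq2. The main test was limma 3.58.1 (R 4.3.3, lmFit and eBayes with trend) on log2(TMM-scaled CPM + 0.1), so fold changes of low genes are understated, fitted on the compared groups only, with Benjamini-Hochberg adjustment over all genes tested and a threshold of 0.05. Alternatives were pseudocounts of 0.5 and 1, no filter, other scaling, limma-voom, edgeR 4.0.16, DESeq2 1.42.0, a fit on all MEFs, leaving out libraries and the MEF line number as a block. Differences between lines 1 and 2 correlated over genes at 0.435 between sgNT and sgBcl-2, -0.0843 between no sgRNA and sgNT and -0.194 between no sgRNA and sgBcl-2, and the differences between WT libraries 1 and 2 at 0.185 with sgBcl-2, 0.0601 with sgNT and 0.0565 with no sgRNA. These 2 numbers do not settle a pairing. Lengths are exon unions of GENCODE M21. The growth arrest list is not reported here. The fits were also run on simulated data, and the outcome is not given here. Figures used Python 3.11.15 and matplotlib 3.10.9.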

Additional observations from a re-analysis of the deposited data

Results flagged for a closer look

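Igfbp5 in sgBcl-2 MEF library 2-1 stood apart from the other 3 sgBcl-2 libraries. Its level was 322.0 CPM against 75.47 to 93.15 CPM, and on the log2 scale the gap to the next library was 0.855 of the range of the group, above Dixon's 95% critical value for 4 libraries. It was 1 of 20 pairs of group and gene checked, and chance alone marks about 1 in 20. The cause was not tested.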

How the results depend on the processing

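Of 870 alternative values of 55 fold changes, 782 kept direction and side of the threshold, 46 passed in place of missing it, 31 missed it and 11 turned direction, 10 of them in WT comparisons. The other was Igf2 in sgNT against no sgRNA, at -0.62 to 0.07 when 1 library was left out. Without WT library 2, Igf2 turned to 2.59 (sgNT) and 2.86 (no sgRNA), Igf2r to 0.26 and 0.30, Igfbp6 with sgNT to -0.51 and Igfbp7 without an sgRNA to -0.39. Without WT library 1, H19 with sgNT turned to -0.45 and Igfbp6 without an sgRNA to 0.40. Igf2, no sgRNA against WT, turned to 0.06 with limma-voom and to 0.26 without no sgRNA library 2. Leave-one-out ranges were -3.33 to 2.59 and -3.03 to 2.86 for Igf2, -0.45 to 1.57 for H19, -0.98 to 0.26 and -0.92 to 0.30 for Igf2r, -0.51 to 1.66 and -1.80 to 0.40 for Igfbp6, and -0.39 to 1.53 for Igfbp7. The cause was not tested.

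Leaving out 1 library gave 0 to 6 calls among the 10 genes for sgNT against WT, 0 to 9 for no sgRNA against WT, 0 to 3 for sgBcl-2 against sgNT, 4 to 7 for lymphoma lines against preB-ALL and 0 to 1 for primary tumours, where the call was Igf2r lower or, without the tumour with less Igf2, Igf2 higher. For no sgRNA against WT, DESeq2 gave 2 calls and the fit on all 10 MEFs gave 1 (717 genes, against 68 for sgNT against WT). For sgNT against no sgRNA, that fit gave 2 (901 genes in place of 6029). For sgBcl-2 against sgNT, it gave 0 (64 in place of 1592), no filter and limma-voom gave 1 each, and DESeq2 gave 4, with Igf2r higher and Igfbp7 lower added. For tumours, no filter (Igf1 higher added) and DESeq2 (Igfbp2 lower added) gave 2 each, and the IgM-positive lines alone gave 0. With the MEF line as replicate block, sgBcl-2 against sgNT gave 3 calls, and 5 with the 2 sgBcl-2 libraries of a line summed (2654 genes), while sgNT against no sgRNA gave 8, with H19 added (adjusted p = 0.027). Without scaling, the median of all genes moved to -0.42 in lymphoma lines against preB-ALL and from 0.27 to 0.097 (0.46 with RLE size factors) in sgBcl-2 MEFs against lymphoma lines. Genes with under 3 reads in a group carry no usable fold.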
